A study of Mus musculus with 38 samples.

Results

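RelA-TA-KI primary mouse embryonic fibroblasts were compared after LPS and after Poly(I:C) at the same time, once at 3 h and once at 8 h. The members are 4 of the 38 samples of the series, found by genotype, agent and time: LPS at 3 h, Poly(I:C) at 3 h, LPS at 8 h and Poly(I:C) at 8 h, each a single library. The cells came from C57BL/6 embryos homozygous for a knock-in of Rela, named RelA-TA-KI in the labels; the series title speaks of transactivation by RelA, and the altered residues are not given in the sources used here. All cells were serum-starved overnight before stimulation, and the medium then received either LPS at 100 ng/ml or Poly(I:C) at 20 ug/ml. An untreated RelA-TA-KI library of the same table and the 4 matched libraries of wild-type (WT) C57BL/6 cells, with their untreated library, are used as references. The labels do not say how many embryos or cultures went into a library, so a library may stand for 1 culture or for a pool. The comparison asks how far the responses to the 2 agents differ in cells with the altered RelA.

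LPS is the outer-membrane lipid of Gram-negative bacteria and is sensed at the cell surface and in endosomes by TLR4 with its partners CD14 and MD-2, which signal through the adaptors MyD88 and TRIF. Poly(I:C) is a synthetic double-stranded RNA; added to the medium it is sensed by TLR3 in endosomes, which signals through TRIF alone, and by RIG-I-like receptors where it reaches the cytosol. Both routes activate NF-kB, whose RelA subunit carries transactivation domains, and IRF3, which together with NF-kB switches on the interferon beta gene. Secreted interferon then acts on its receptor and induces antiviral genes.

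The 4 libraries held 8.148, 8.973, 8.707 and 8.495 M counts for LPS 3 h, Poly(I:C) 3 h, LPS 8 h and Poly(I:C) 8 h, within the range of 7.022 to 9.431 M of the 18 libraries of the table, and 17281 to 18194 genes had at least 1 count. At these depths 3 counts correspond to 0.345 to 0.473 CPM (counts per M counts of the scaled library). Rela, which encodes RelA and lies on chromosome 19 at 5637483 to 5648130 (mm10), was at 62.6 CPM untreated, 173.7 with LPS and 109.5 with Poly(I:C) at 3 h, and 164.9 and 171.8 at 8 h; these levels do not show the altered allele. All 20 fibroblast markers were detected in each of the libraries, with a summed level of 75940 to 98940 CPM in the 4 stimulated ones. All 24 macrophage markers were detected as well, with summed levels of 7923 CPM untreated, 8275 (LPS) and 8359 (Poly(I:C)) at 3 h, and 9820 and 11710 at 8 h. Among them Lyz2 was at 1381, 1427, 1131 and 1431 CPM in the 4 libraries and Csf1r at 205, 269.5, 119.7 and 282.1, so the cultures held myeloid transcripts. Which cells a transcript came from cannot be told from these bulk values, and fewer cells of a type cannot be told apart from less RNA per cell. The RelA-TA-KI libraries had Ddx3y at 138.4 to 183.7 CPM and almost no Xist (0.459 to 1.254), while the 4 WT libraries had both (Xist 248.7 to 360.3, Ddx3y 56.02 to 96.13); the part of this difference in any genotype comparison was not tested.

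A gene was counted as higher by size when its CPM ratio reached 2-fold and at least 1 of the 2 libraries reached 5 CPM. Of 13777 genes with at least 1 CPM in 1 of the 4 libraries, 263 (1.91%) were higher with LPS and 80 (0.581%) with Poly(I:C) at 3 h. At 8 h 238 (1.73%) were higher with LPS and 201 (1.46%) with Poly(I:C). No p-value belongs to these counts, because each condition is 1 library. The scale of the 3 h comparison matters: with libraries scaled by total counts alone, the median log2 ratio moves from 0.02 to -0.17 and the split from 263 and 80 to 177 and 178. At 8 h the same change gives 193 and 188. As a measure of what single libraries do, the same rule applied between the 2 replicate RelA-TA-KI libraries of each TNF time point in the other table picked 0.354 to 0.974% of genes in both directions together. Between the agents both directions together came to 343 genes (2.49%) at 3 h and 439 (3.19%) at 8 h. The 80 genes higher with Poly(I:C) at 3 h were weakly expressed, with a median of 8.44 CPM in the higher library and 13 at or above 20 CPM, against a median of 56.5 CPM and 199 genes for those higher with LPS.

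**Figure D1:**
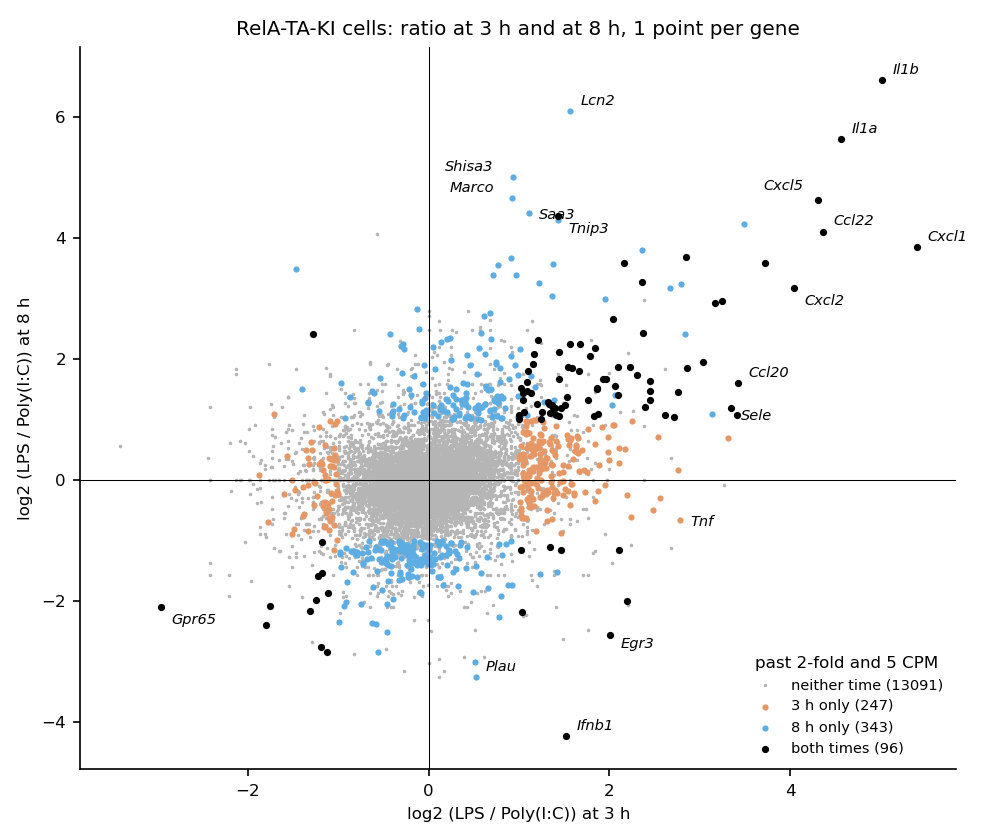
Each point is 1 of 13777 genes, with the log2 ratio of LPS to Poly(I:C) in RelA-TA-KI cells at 3 h (horizontal axis) and at 8 h (vertical axis), coloured by the times at which it passed 2-fold and 5 CPM. Cxcl1, Il1b, Il1a and Ccl22 lie far to the upper right (higher with LPS at both times), whereas Ifnb1 and Egr3 lie to the right of zero at 3 h and well below it at 8 h.

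The genes higher with LPS overlapped in part between the times. Of them, 76 were higher at both 3 and 8 h, which is 28.9% of the 3 h genes and 31.9% of the 8 h genes. For Poly(I:C) 11 genes were shared, 13.8% of the 3 h and 5.47% of the 8 h genes. A change of side was seen for 8 genes from LPS at 3 h to Poly(I:C) at 8 h and for 1 gene in the other direction. The plot of ratios at the 2 times shows these groups. Set against the untreated library, 237 of the 263 genes higher with LPS at 3 h were at least 2-fold up with LPS, and 127 of those were also 2-fold up with Poly(I:C). Of the 80 genes higher with Poly(I:C) at 3 h only 6 were 2-fold up with Poly(I:C), while 68 were 2-fold down with LPS. At 8 h 197 of 238 LPS-higher genes were 2-fold up with LPS, and 114 with both agents. Of the 201 genes higher with Poly(I:C) at 8 h, 72 were 2-fold up with Poly(I:C) and 106 were 2-fold down with LPS. Over all genes 1222 were 2-fold up and 897 down with LPS at 3 h, and 1926 and 1825 at 8 h. With Poly(I:C) 794 and 1764 were up. Within the groups, LPS-higher genes were mostly up with LPS. Poly(I:C)-higher genes were more often down with LPS than up with Poly(I:C). The groups were picked by the ratio, which favours such levels, so these counts only describe them. The 3 h Poly(I:C) group also depends on the scaling.

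A model of the 8 late libraries (2 genotypes, 2 agents, 2 times, all pairwise terms; edgeR quasi-likelihood F test with Benjamini-Hochberg adjustment over 13056 genes) gave 494 genes (3.78%) higher with LPS and 169 (1.29%) higher with Poly(I:C) in RelA-TA-KI as the mean of both times. Its spread is the genotype-by-agent-by-time term, with 1 residual degree of freedom per gene. That spread is drawn toward a value shared over genes, with 8.41 prior degrees of freedom. The p-values therefore rest largely on the shared value, and do not measure a spread between replicate cultures. They are called here results of the joint model. The calls depend on that model: without the agent-by-time term 23 of the 663 remained, and with the 4 RelA-TA-KI libraries alone 128, while DESeq2 called 242. Of 95 named genes called for the agent in RelA-TA-KI, 12 kept their call without the agent-by-time term, namely Il1b, Il1a, Ccl22, Cxcl5, Cxcl3, Zc3h12a, Socs3, Ptx3, Steap4, Nos2, Tnfrsf1b and Slc7a2. Of the 76 genes higher with LPS by size at both times, 74 were among the 494. Both rules draw on the same RelA-TA-KI libraries, so this overlap was largely built in and is not separate support.

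The neutrophil-attracting chemokines had the highest median ratio of the 31 lists at both times. The median log2 ratio of the 6 measured members was 3.00 at 3 h and 3.09 at 8 h, beside 0.02 and -0.01 over all genes; 3 were higher with LPS by size at 3 h, 4 at 8 h, and none with Poly(I:C). By size 1.91 and 1.73% of all genes were higher with LPS at 3 and 8 h. A gene that reaches 1 CPM only after LPS had to differ, so these list counts describe the lists and support nothing beyond them. Cxcl1 (chromosome 5, 90891241 to 90893115) was at 2.48 CPM untreated, 203 with LPS and 4.59 with Poly(I:C) at 3 h, and 559.9 and 38.6 at 8 h. With Poly(I:C) it therefore stayed near the untreated level at 3 h and was above it at 8 h, whereas LPS was far above at both times. The ratio was 44.2 at 3 h (95% interval 32.3 to 62.1, counting error only, as for all such intervals here) and 14.5 at 8 h (12.8 to 16.6). Cxcl5 was at 21.4 CPM untreated, 297 and 14.8 at 3 h, and 1149 and 46.2 at 8 h. Its Poly(I:C) level at 3 h was below the untreated library and 20-fold below LPS (16.8 to 24.1). Cxcl2 was at 0.994 CPM untreated, 62.2 and 3.56 at 3 h, and 74.3 and 7.99 at 8 h. Cxcl3 was at 1.58 and 0.230 CPM at 3 h and at 10.4 and 1.10 at 8 h. All of Cxcl1, Cxcl2, Cxcl3 and Cxcl5 were called higher with LPS by the joint model (adjusted p = 9.3e-08, 2.4e-06, 0.0031 and 2.3e-07). The platelet chemokines Pf4 and Ppbp, the other members, were at 0.784 to 6.6 CPM in the 4 libraries and were not called.

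Promoter sequence is shown for Cxcl1 and Cxcl2, which were far higher with LPS, and for Cxcl10 and Gbp2, which stayed within 2-fold, so that the letters of the 2 kinds of element can be read next to the values. Each is a stretch of 100 bases before the RefSeq start (GRCm38.p6, the mm10 assembly), 5′ to 3′ on the strand of the gene, at chr5:90891118-90891217 (plus), chr5:90903746-90903845 (plus), chr5:92349040-92349139 (minus) and chr3:142620549-142620648 (plus). Capitals mark a kappa-B core, GGGANTTTC, in Cxcl1 and Cxcl2, and an interferon response element core, GAAANNGAA, in Cxcl10 and Gbp2, where N is any base. GGGANTTTC covers only some of the letters that NF-kB dimers recognise, and other forms were not searched or marked. Both strands were searched, and in Gbp2 the core lies on the opposite strand.
Cxcl1: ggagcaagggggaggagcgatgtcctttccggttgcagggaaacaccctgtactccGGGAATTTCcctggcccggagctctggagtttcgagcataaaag
Cxcl2: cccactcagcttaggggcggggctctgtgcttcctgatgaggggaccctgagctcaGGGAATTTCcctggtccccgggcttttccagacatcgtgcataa
Cxcl10: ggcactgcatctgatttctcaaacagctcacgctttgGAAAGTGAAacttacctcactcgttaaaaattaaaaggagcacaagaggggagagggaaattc
Gbp2: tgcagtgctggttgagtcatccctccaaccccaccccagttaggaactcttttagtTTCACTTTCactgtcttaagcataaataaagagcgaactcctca
The cores start 71, 97, 213 and 58 bases before the start of Cxcl1, Cxcl2, Cxcl10 and Gbp2.

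Over windows of 250 bases before to 50 after the start, 1.29% of the 27025 genes of the RefSeq table held the kappa-B core and 9.76% the interferon core. The kappa-B core was found in 8 of 184 genes with a window among those higher with LPS at 3 h (4.35%), in 7 of 173 at 8 h (4.05%), in 0 of 62 and 1 of 146 (0.685%) of those higher with Poly(I:C) at 3 and 8 h, and in 0 of 42 antiviral genes. Cxcl1, Cxcl2 and Cxcl3 held it among 5 neutrophil chemokines with a window, and Il6, Nfkbia and Cxcl9 among the other LPS-higher genes described here. The interferon core stood in 24 of 42 antiviral genes (57.1%), in 21 of 184 (11.4%) and 25 of 173 (14.5%) of the LPS-higher genes at 3 and 8 h, and in 5 of 62 (8.06%) and 12 of 146 (8.22%) of the Poly(I:C)-higher genes. The 2 patterns were searched separately and their matches may share letters. These are matches of letters in short windows and not measured binding. A window without a match may hold another form of the element, since no other form was searched.

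Cytokines and growth factors were the next list. Of 28 measured, 12 were higher with LPS by size at 3 h and 12 at 8 h, and none with Poly(I:C). Their median log2 ratios were 1.77 and 0.90. The joint model called 16 of 26 fitted higher with LPS and none higher with Poly(I:C), against 3.78 and 1.29% of all genes. By size 1.91 and 1.73% of all genes were higher with LPS at 3 and 8 h. Il1b, the secreted interleukin 1 that drives fever and leukocyte recruitment (chromosome 2, 129364570 to 129371139), was at 1.89 CPM untreated, 129.5 and 3.79 at 3 h, and 655.9 and 6.43 at 8 h. LPS and Poly(I:C) differed 34.2-fold at 3 h (24.2 to 49.9) and 102-fold at 8 h (75.1 to 142). Il1a, its membrane-associated relative, was at 0.497 CPM untreated, 24.4 and 0.804 at 3 h, and 50.8 and 0.784 at 8 h, where the Poly(I:C) level was near that of 3 counts. Both genes were high with LPS alone at both times. Il6, a target of RelA that signals through gp130 (chromosome 5, 30013114 to 30019981), was at 1.09 CPM untreated, 300.3 and 41.4 at 3 h, and 299.6 and 82.8 at 8 h. It was thus well above untreated with both agents, 7.26-fold higher with LPS at 3 h (6.49 to 8.15) and 3.62-fold at 8 h (3.29 to 3.99). Il12b, the shared subunit of interleukins 12 and 23, was at 63.5 and 19.9 CPM at 3 h and 172.7 and 49.2 at 8 h. Csf3, the granulocyte growth factor, had no count with Poly(I:C) at 3 h and 2.44 CPM with LPS, at least 7.08-fold higher against a floor of 3 counts in the Poly(I:C) library; at 8 h it was at 7.25 and 0.157 CPM. The growth factor Ereg was at 63.4 and 5.74 CPM at 3 h and at 64 and 30.2 at 8 h.

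**Figure D2:**
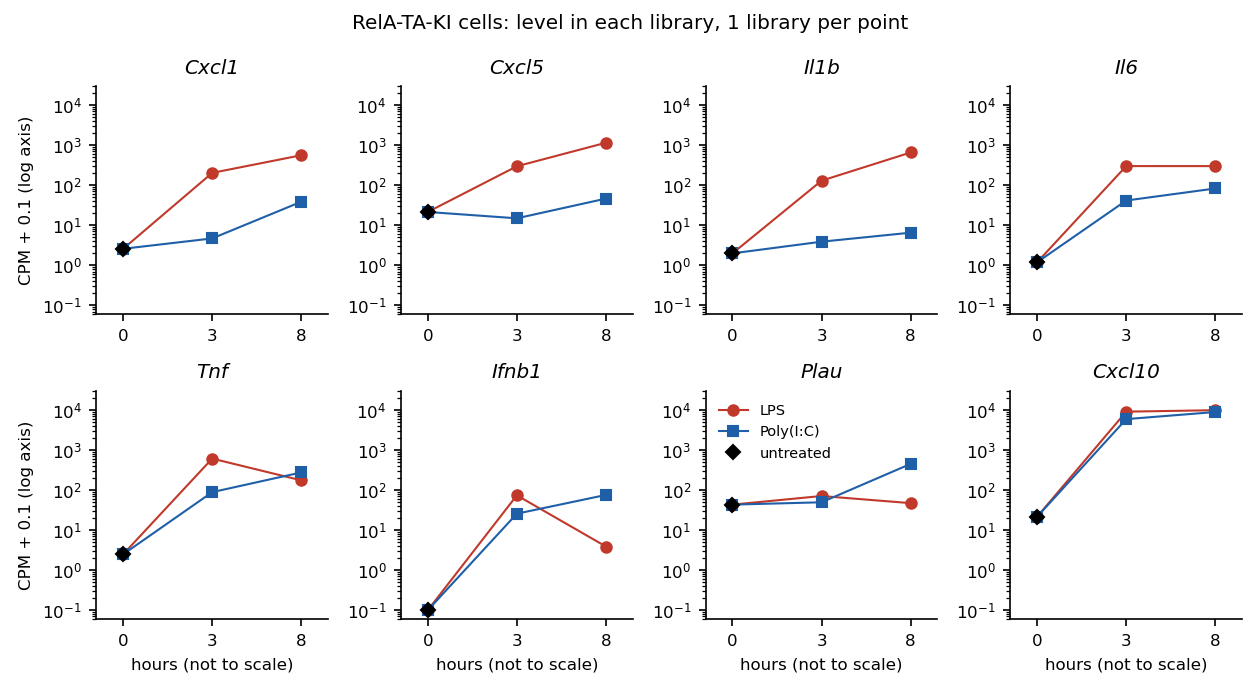
Level in RelA-TA-KI cells (CPM + 0.1, logarithmic axis shared by the panels) without treatment and after LPS (red circles) or Poly(I:C) (blue squares) for 3 and 8 h, 1 library per point, with lines joining times. Cxcl1, Cxcl5, Il1b and Il6 stay higher with LPS, Tnf, Ifnb1 and Plau are higher with Poly(I:C) at 8 h, and Cxcl10 follows nearly the same course with both agents.

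Tnf, the cytokine that signals back to NF-kB (chromosome 17, 35199381 to 35202007), changed sides. It was at 2.38 CPM untreated, 610 with LPS and 88.6 with Poly(I:C) at 3 h, and 174.4 and 275.4 at 8 h. LPS was higher at 3 h by 6.89-fold (6.38 to 7.45), and Poly(I:C) was higher at 8 h by 1.58-fold (1.46 to 1.7), which is below the 2-fold rule. The change of the ratio from 3 to 8 h in the joint model, taken over both genotypes, was -2.79 on the log2 scale (SE 0.26, adjusted p = 0.0016). In WT, with levels given below, LPS stayed higher at both times. The value over both genotypes therefore does not test the change of sides in RelA-TA-KI.

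Other chemokines separated less. Of 17 CC and other chemokines, 8 were higher with LPS at 3 h and 4 at 8 h by size, and none with Poly(I:C). Their median log2 ratios were 0.99 and 0.49. The joint model called 11 of 18 fitted, all higher with LPS, against 3.78% of all genes. By size 1.91 and 1.73% of all genes were higher with LPS at 3 and 8 h. Ccl22, a T-cell and dendritic-cell attractant, had the widest gap, with 0.298 CPM untreated, 42.3 and 1.84 at 3 h, and 207.2 and 11.8 at 8 h. Ccl20, a ligand of CCR6, was at 29.4 and 2.53 CPM at 3 h and at 154.8 and 50.8 at 8 h, so its gap was narrower at the later time. Ccl3 was at 713.1 and 150.1 CPM at 3 h and at 974.9 and 492.3 at 8 h, and Ccl5 at 283.1 and 79.4 and then at 2168 and 1032. The monocyte attractant Ccl2 was at 9.74 CPM untreated, 2466 and 814.1 at 3 h, and 4357 and 3423 at 8 h; it was high with both agents, and its log2 ratio was 1.60 at 3 h and 0.35 at 8 h. Among the ligands of CXCR3, which are induced by interferon, Cxcl11 was higher with LPS by size at both times (log2 1.24 and 1.01), Cxcl9 at 3 h (1.04 and 0.80), and Cxcl10 at neither. With total-count scaling Cxcl11 at 8 h (0.96) and Cxcl9 at 3 h (0.86) fall short of 2-fold. Cxcl10 was at 21.5 CPM untreated, 9054 and 5899 at 3 h, and 9861 and 8875 at 8 h.

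Genes of the NF-kB pathway itself differed in part. Of 25 inhibitors and feedback regulators, 8 were higher with LPS at 3 h and 4 at 8 h by size, and none with Poly(I:C). Their medians were 0.55 and 0.58 on the log2 scale, and 17 and 21 lay within 2-fold. The joint model called 11, all higher with LPS, against 3.78% of all genes. By size 1.91 and 1.73% of all genes were higher with LPS at 3 and 8 h. Zc3h12a, the ribonuclease that degrades Il6 and other cytokine mRNAs (chromosome 4, 125118423 to 125127840), was at 5.37 CPM untreated, 65 and 6.66 at 3 h, and 119.7 and 15.2 at 8 h. Its Poly(I:C) level at 3 h was near the untreated one. Nfkbiz, an inducible cofactor of secondary NF-kB targets, was at 12.6 CPM untreated, 482.5 and 58.9 at 3 h, and 498.9 and 128.4 at 8 h. Nfkbia, which encodes the inhibitor IkB-alpha, was at 21.7 CPM untreated, 345.1 and 87.3 at 3 h, and 448.1 and 273.6 at 8 h, above untreated in all 4 libraries and 3.95-fold (3.64 to 4.29) and 1.64-fold (1.54 to 1.74) higher with LPS. Tnfaip3, which encodes the deubiquitinase A20, was at 568.4 and 182.7 CPM at 3 h and 445.4 and 323.2 at 8 h, and Tnfaip2 at 801.1 and 138.2 and then 478.9 and 290.9. Of the 5 subunit genes Rel was higher by size at 3 h (151.6 against 68.1 CPM; log2 1.15, and 0.97 with total-count scaling, which ends the call), and Nfkb1, Nfkb2 and Rel were called by the joint model; Rela was not (adjusted p = 0.13).

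Among 24 Toll-like receptors and partners 1 was higher with LPS by size at 3 h and 3 at 8 h, and 2 with Poly(I:C) at 8 h (medians 0.25 and 0.14), against 1.73 and 1.46% of all genes at 8 h. The joint model called 3 of 23 fitted higher with LPS and 1 higher with Poly(I:C), against 3.78 and 1.29% of all genes. Cd14, the LPS co-receptor, was at 39.4 CPM untreated, 287.6 and 105.3 at 3 h, and 425.2 and 98.1 at 8 h, and was called higher with LPS (log2 1.78, SE 0.10, adjusted p = 1.5e-05). Tlr4 was at 55.2 CPM untreated, 62.2 and 76.4 at 3 h, and 56.8 and 102.8 at 8 h, and was not called (adjusted p = 0.083). Tlr3 was at 14 CPM untreated, 413.9 and 345.2 at 3 h, and 752.4 and 599.5 at 8 h, which is within 2-fold at both times. Tlr9, a receptor of DNA found in myeloid cells, was at 31.1 CPM with LPS and 80.2 with Poly(I:C) at 8 h. Of 12 cytosolic sensors 3 were called by the joint model, all higher with LPS, against 3.78% of all genes. Ifih1, which encodes the double-stranded RNA sensor MDA5, was higher with LPS by size at 3 h (2795 against 1353 CPM; log2 1.05, and 0.86 with total-count scaling, which ends the call) and level at 8 h (2096 and 1931). Nod2 was the other sensor past 2-fold, at 8 h (19.7 and 7.84 CPM).

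Effector genes of inflamed tissue differed in part. Within 2-fold at 3 and 8 h were 10 and 8 of 13 inflammatory enzymes and 8 and 9 of 15 acute phase and complement genes. The same held for 10 and 12 of 18 matrix proteases and inhibitors. The members named below are mostly those with the largest ratios. Of 13 inflammatory enzymes 3 were higher with LPS at 3 h and 4 at 8 h by size (medians 0.78 and 0.56). The shares of all genes, here and for the next list, were 1.91 and 1.73%. Nos2, the inducible nitric oxide synthase, was at 0.199 CPM untreated, 22.9 and 2.99 at 3 h, and 198.7 and 15.2 at 8 h. Ptgs2, the inducible cyclooxygenase, was at 980.4 and 144.7 CPM at 3 h and 1551 and 561.6 at 8 h, and Ptges, the prostaglandin E synthase, at 35.1 and 15.5 and then 144.7 and 33.7. Of 15 acute phase and complement genes 5 and 6 were higher with LPS by size at 3 and 8 h (medians 0.72 and 0.98). Ptx3, a secreted pattern recognition molecule, was at 103.1 CPM untreated, 818.4 and 175.3 at 3 h, and 1676 and 457 at 8 h. Lcn2, which binds bacterial iron chelators, was at 1.15 CPM or less in the untreated and 3 h libraries, and at 8 h at 16.2 CPM with LPS with no count with Poly(I:C), at least 34.5-fold higher against a floor of 3 counts in the Poly(I:C) library. Saa3, a serum amyloid A gene, was at 2.01 and 0.804 CPM at 3 h and at 35.2 and 1.41 at 8 h. Both genes were thus at 2.01 CPM or less until 8 h. Among 18 matrix proteases and inhibitors, Mmp3 was at 56.5 and 10.8 CPM at 3 h and 182.1 and 18.6 at 8 h, Timp1 at 554.9 and 152.4 and then 1459 and 511.7, and the protease inhibitor Serpinb2 at 21.1 and 1.38 and then 104.9 and 8.46. Of the adhesion molecules, the endothelial selectin Sele was at 23.1 and 2.07 CPM at 3 h and 35.3 and 15.2 at 8 h, and Icam1 at 322.7 and 163.2 and then 479.6 and 349.

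Some genes of the LPS side are best known from myeloid cells. Of 21 measured myeloid LPS response genes, 8 were higher with LPS at 3 h and 8 at 8 h by size, and 1 with Poly(I:C) at 8 h (medians 0.73 and 0.52). The shares of all genes were 1.91 and 1.73% with LPS, and 1.46% with Poly(I:C) at 8 h. Marco, a macrophage scavenger receptor (chromosome 1, 120474538 to 120505024), was at 0.43 and 0.115 CPM at 3 h and at 21.8 and 0.627 at 8 h, and the formyl peptide receptor Fpr1 at 1.58 and 0.689 and then 13.9 and 1.10. Both genes were at 1.58 CPM or less in 3 of the 4 libraries. Tnfrsf1b, a TNF receptor, was at 91.9 CPM untreated, 397.4 and 104.3 at 3 h, and 1416 and 444.2 at 8 h. The summed macrophage markers were not higher with LPS: they stood at 8275 against 8359 CPM at 3 h and at 9820 against 11710 at 8 h, with median log2 ratios of 0.01 and -0.38. Single markers went both ways. The joint model called 2 of 24 higher with LPS and 3 higher with Poly(I:C), against 3.78 and 1.29% of all genes. Those higher with LPS were Adgre1 (log2 0.23 at 3 h and 0.92 at 8 h) and Itgam (0.02 and 0.97). The 8 h minus 3 h change over both genotypes was called for 3 toward LPS and 6 toward Poly(I:C), against 1.29 and 2.78%. The part of these markers in the differences above was not tested.

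The antiviral program stood above untreated with both agents, and nearly all of its genes lay within 2-fold between them. All of 54 antiviral interferon-stimulated genes were measured. Against untreated, 53 were 2-fold up with LPS and 50 with Poly(I:C) at 3 h, and 53 with each at 8 h, with median log2 levels over untreated of 3.77 and 3.35 at 3 h and 4.76 and 4.67 at 8 h. Between the agents 53 lay within 2-fold at 3 h and all 54 at 8 h (median log2 ratios 0.29 and 0.07). The joint model called 5 of the 54, all higher with LPS, against 3.78% of all genes. Ifi205, a DNA-binding interferon-inducible protein gene, was the member past 2-fold (log2 1.12 at 3 h, and 0.94 with total-count scaling), with 2.98 CPM untreated, 646.4 and 297.9 at 3 h, and 1549 and 1070 at 8 h. Cmpk2, a nucleotide kinase next to the antiviral gene Rsad2, was at 18.5 CPM untreated, 4929 and 3055 at 3 h, and 3813 and 3290 at 8 h. The 17 interferon-inducible GTPases, which act on intracellular pathogens, all lay within 2-fold at both times (medians 0.35 and 0.21), and so did the 21 MHC class I and antigen processing genes (0.29 and 0.02). The joint model called 3 of the 17 GTPases and 1 of the 21 MHC genes, all higher with LPS, against 3.78% of all genes. The MHC count is near that share. Gbp2 was at 38.4 CPM untreated, 4372 and 2726 at 3 h, and 7743 and 6171 at 8 h. With total-count scaling the 3 h medians of these 3 lists were 0.11, 0.17 and 0.11. Near-identical or overlapping genes (Ifit3 and Ifit3b, Oas1a and Oas1g, Gbp4 and Gbp8, Bcl2a1a and Bcl2a1b) may share reads, and their single values are uncertain.

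Of 20 interferon signaling genes 18 lay within 2-fold at each time (medians 0.27 and 0.20), and 9 were called by the joint model, all higher with LPS, against 3.78% of all genes. Irf1 was at 30.6 CPM untreated, 727.5 and 794.9 at 3 h, and 490.2 and 510 at 8 h. Irf7 was at 21.9 CPM untreated, 431.3 and 342.5 at 3 h, and 1491 and 1438 at 8 h. Neither Irf1 nor Irf7 was called by the joint model (adjusted p = 0.82 and 0.36), which does not show that their levels were equal. The exceptions past 2-fold were Socs3, a feedback inhibitor of gp130 signaling, at 344.1 and 118 CPM at 3 h and 403.6 and 109.9 at 8 h, Jak2 at 3 h (507.7 and 231.9; log2 1.13, and 0.95 with total-count scaling), and Irf8 at 8 h (90.5 and 39.3). Taking all genes 2-fold up with both agents, 674 of 804 at 3 h and 1490 of 1632 at 8 h lay within 2-fold of each other; LPS was 2-fold higher for 127 and 114 of them and Poly(I:C) for 3 and 28.

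**Figure D3:**
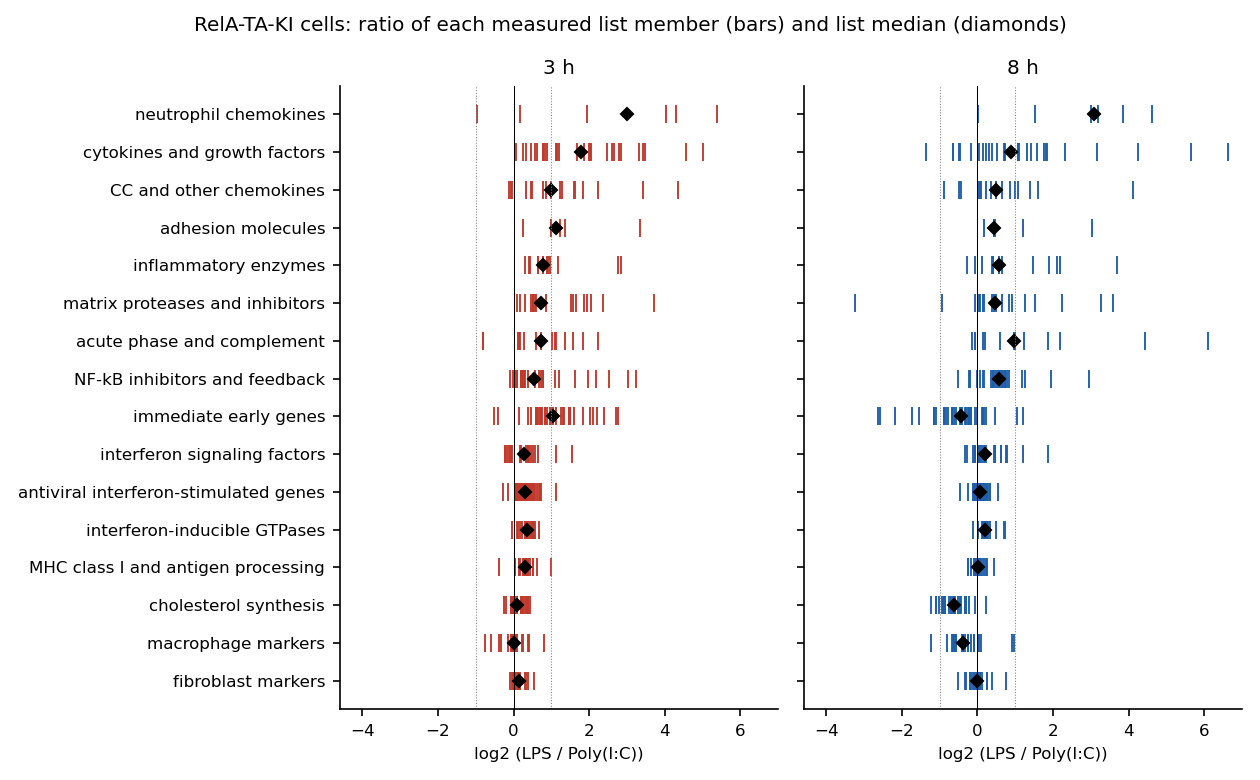
Each short bar is the log2 ratio of LPS to Poly(I:C) of 1 measured list member in RelA-TA-KI cells at 3 h (left, red) and 8 h (right, blue), with the list median as a black diamond and dotted lines at 2-fold. Neutrophil chemokines and cytokines spread far to the right at both times, the 3 interferon-induced lists stay between the dotted lines apart from Ifi205 at 3 h, and immediate early genes move from a median of 1.05 at 3 h to -0.44 at 8 h.

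The interferon beta gene itself changed sides. Ifnb1 (chromosome 4, 88522025 to 88522774) had no count in the untreated library, was at 73.7 CPM with LPS and 25.6 with Poly(I:C) at 3 h, and at 3.78 and 75.4 at 8 h. LPS was 2.88-fold higher at 3 h (2.45 to 3.38) and Poly(I:C) 19.9-fold higher at 8 h (13.2 to 31.4). In the WT libraries the levels were 15.8 and 4.83 CPM at 3 h and 2.84 and 32.2 at 8 h, the same order at each time. The ratio changed from 3 to 8 h by -5.59 on the log2 scale over both genotypes (SE 0.26, adjusted p = 1.9e-05), and the genotypes' ratios were not called different (adjusted p = 0.57). Ifnb1 was the 1 interferon gene of 9 listed that reached 1 CPM in these libraries.

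Over all genes the ratio was called different between 8 and 3 h for 169 genes in the direction of LPS (1.29%) and for 363 in the direction of Poly(I:C) (2.78%), taken over both genotypes. Plau, the urokinase plasminogen activator (chromosome 14, 20836662 to 20843388), was at 43.1 CPM untreated, 70.8 and 49.4 at 3 h, and 47 and 449.2 at 8 h. The library with Poly(I:C) at 8 h alone was high, 9.56-fold above LPS (8.48 to 10.8), and the change of the ratio was -3.73 (SE 0.16, adjusted p = 1.3e-05). Pparg, a lipid-sensing nuclear receptor, was at 7.16 CPM untreated, 6.17 and 9.19 at 3 h, and 3 and 22.9 at 8 h. Lair1, an inhibitory receptor of leukocytes, was at 17.8 CPM untreated, 9.61 and 13.3 at 3 h, and 4.26 and 25.2 at 8 h. Kdr, the VEGF receptor gene, was at 10.8 CPM untreated, 59.1 and 69.5 at 3 h, and 259.5 and 757 at 8 h, while the endothelial marker Pecam1 lay on the other side at 8 h (7.25 with LPS and 0.470 with Poly(I:C)) and Cdh5 at 4.26 and 3.13. The summed endothelial markers, 9 of 11 detected and Kdr among them, stood at 196.8 and 135.2 CPM at 3 h and 644.4 and 1078 at 8 h, and their part in these values was not tested. Csf1r, the macrophage growth factor receptor, was the macrophage marker past 2-fold (119.7 and 282.1 CPM at 8 h). Tmem86a was at 44.6 CPM untreated, 8.46 and 19.5 at 3 h, and 8.36 and 58 at 8 h, and was lower with LPS than untreated at both times.

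In the other direction Shisa3 was at 2.88 CPM untreated, 3.3 and 1.61 at 3 h, and 68 and 1.88 at 8 h, and Tnip3, an A20-binding protein gene, at 1.39 CPM untreated, 35.4 and 13 at 3 h, and 233.7 and 11.1 at 8 h. Both stood apart with LPS at 8 h. The ratio change in the joint model, taken over both genotypes, was called for each (3.50 with adjusted p = 0.0044, and 1.98 with adjusted p = 0.0099).

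Immediate early genes, which growth factor and stress signals switch on within minutes, were on the LPS side at 3 h and no longer at 8 h. Of 35 measured, 18 were higher with LPS by size and none with Poly(I:C) at 3 h (median log2 ratio 1.05), and 2 with LPS and 7 with Poly(I:C) at 8 h (median -0.44). The 8 h minus 3 h change, taken over both genotypes, was called for 19 of 34, all in the direction of Poly(I:C), against 2.78% of all genes. With total-count scaling the counts were 15 and 0 at 3 h and 1 and 6 at 8 h. With the main scaling 1.91% of all genes were higher with LPS at 3 h. At 8 h the shares were 1.73% with LPS and 1.46% with Poly(I:C). Egr3 (chromosome 14, 70077445 to 70080157) was at 5.17 CPM untreated, 12.8 and 2.99 at 3 h, and 4.89 and 30.1 at 8 h. Egr1 and Egr2, 2 members singled out after their values were seen, were at 443.9 and 161.3 and at 16.6 and 8.04 CPM at 3 h, and at 363.9 and 806.2 and at 11 and 50.9 at 8 h. All 3 were higher with LPS at 3 h and with Poly(I:C) at 8 h. Ier3, a gene that NF-kB also induces, kept its side, with 138.3 and 20.9 CPM at 3 h and 114 and 55.2 at 8 h, and so did the phosphatase gene Dusp2 (61.5 and 11.5, then 115.4 and 49.7). Fosl1 and Myc were at 26.2 and 3.68 and at 96.5 and 20.9 CPM at 3 h, and level at 8 h (58.5 and 51.9; 124.4 and 146.9). In WT the same list had 21 members higher with LPS and none with Poly(I:C) at 3 h (median 1.27), and 8 and none at 8 h (median 0.52). The WT shares of all genes higher with LPS were 3.55 and 5.73%. A difference between genotypes in the step from 3 to 8 h is the term left as residual and was not tested.

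Genes of cholesterol synthesis also moved between the times. Of 26 measured, none passed 2-fold at 3 h (median 0.09, and -0.09 with total-count scaling). At 8 h 4 were higher with Poly(I:C) (median -0.61), against 1.46% of all genes. Taken over both genotypes, the 8 h minus 3 h change was called for 12, all in the direction of Poly(I:C), against 2.78% of all genes. Hmgcs1, an early enzyme of the pathway, was at 178.1 CPM untreated, 187.5 and 164.1 at 3 h, and 107.1 and 251.5 at 8 h. At 8 h it was below untreated with LPS and above it with Poly(I:C). In WT none of the list was higher by size with either agent at 3 h (median 0), and 14 were higher with Poly(I:C) at 8 h (median -1.05). The WT share of all genes higher with Poly(I:C) at 8 h was 5.49%. Of 27 cell cycle genes 0 passed 2-fold at 3 h and 2 were higher with Poly(I:C) at 8 h, against 1.46% of all genes (medians -0.04 and -0.15). The joint model called 3 of them higher with Poly(I:C), and 3 for the change between the times, in the direction of Poly(I:C). The shares of all genes were 1.29 and 2.78%.

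The genes most higher with Poly(I:C) at 3 h were weakly expressed. Gpr65, a proton-sensing receptor of leukocytes (chromosome 12, 98268635 to 98276624), was at 16.6 CPM untreated, 3.3 and 27.3 at 3 h, and 10.2 and 44.8 at 8 h, 8.29-fold and 4.37-fold higher with Poly(I:C). It was below untreated with LPS and above it with Poly(I:C), and was called by the joint model (log2 -2.50, SE 0.27, adjusted p = 0.00076). Rnf144b was at 22.4 CPM untreated, 2.58 and 9.53 at 3 h, and 2.52 and 14.3 at 8 h, and Card6 at 3.18 untreated, 2.01 and 7.35, and 2.37 and 10.8. Of the other 7 genes of the 10 most higher with Poly(I:C) at 3 h, Il21r was called by the joint model, and Otulinl, Cd300a, Prokr1, Slc25a45, Kmt5c and Bcl7a were not.

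In WT cells the agents separated more genes. By size 491 and 322 genes were higher with LPS and Poly(I:C) at 3 h and 792 and 758 at 8 h, of 13814. Of the RelA-TA-KI genes higher with LPS, 182 at 3 h and 184 at 8 h were also higher in WT, 69.2 and 77.3% of the RelA-TA-KI genes and 37.1 and 23.2% of the WT genes. For Poly(I:C) 41 and 104 genes were shared, 51.2 and 51.7% of the RelA-TA-KI genes and 12.7 and 13.7% of the WT genes. Across 11525 genes at 5 CPM or more in at least 1 library the SD of the log2 ratio was 0.45 and 0.49 in RelA-TA-KI at 3 and 8 h and 0.64 and 0.84 in WT. The ratio differed between genotypes for 180 genes in the joint model, with a lower LPS to Poly(I:C) ratio in RelA-TA-KI for 164 (1.26%) and a higher one for 16 (0.123%). No gene was called for this difference without the agent-by-time term, where the unadjusted p was below 0.05 for 752. DESeq2 called 85, 84 of them among the 180, and gave no adjusted p for 7341 of the 13056 genes. All 180 kept their sign in every fit run.

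**Figure D4:**
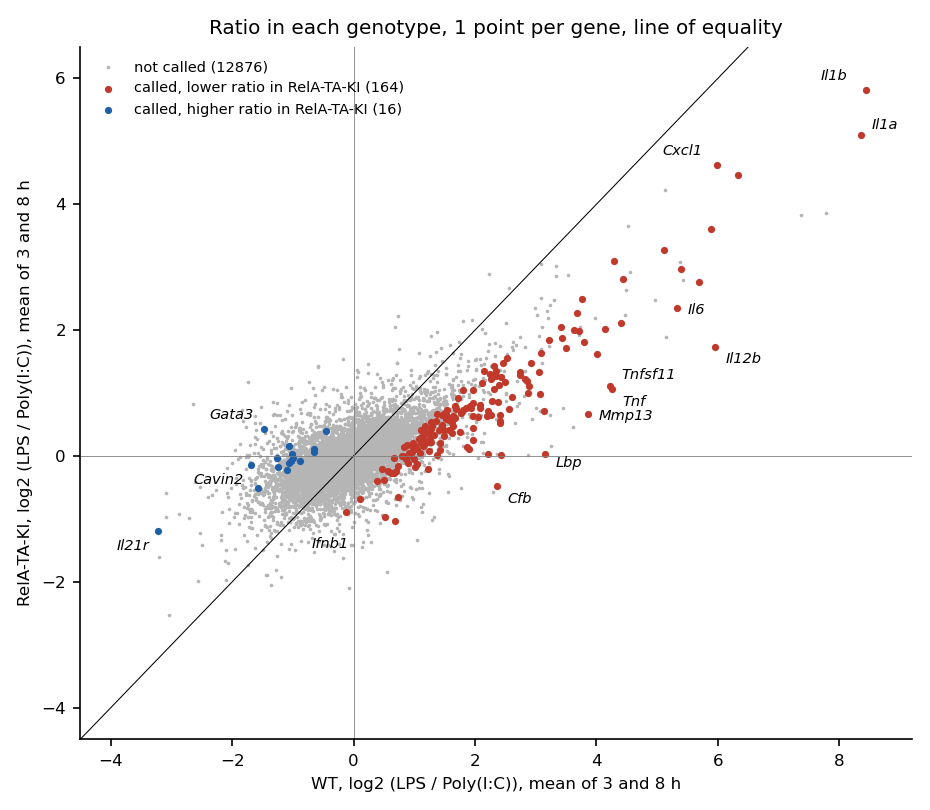
Each point is 1 of 13056 fitted genes, with the log2 ratio of LPS to Poly(I:C), mean of 3 and 8 h, in WT (horizontal axis) and RelA-TA-KI (vertical axis) and a line of equality. The 164 genes called for a lower ratio in RelA-TA-KI (red) lie below the line, mostly at positive WT ratios, and the 16 called for a higher ratio (blue) above it, mostly at negative WT ratios.

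Both arms entered these differences. Among the 164 genes the mean level with LPS was at least 2-fold lower in RelA-TA-KI than in WT for 64, the mean level with Poly(I:C) was at least 2-fold higher for 37, both held for 3, and 66 reached 2-fold in neither (log2 of CPM + 1; median differences -0.76 with LPS and 0.38 with Poly(I:C), against 0.02 and -0.01 over all genes). For 9 of the 164 the mean level with Poly(I:C) was at least 2-fold lower in RelA-TA-KI. Il12b (chromosome 11, 44400063 to 44414033) had the most negative difference, -4.28 on the log2 scale (SE 0.25, adjusted p = 0.00014). Its WT levels were 234.1 CPM with LPS and 5.59 with Poly(I:C) at 3 h and 475.2 and 4.68 at 8 h, so that RelA-TA-KI was lower with LPS and higher with Poly(I:C) at both times. Il6 was at 334.2 and 5.97 CPM in WT at 3 h and 786 and 25.7 at 8 h (difference -3.02, SE 0.16, adjusted p = 8.6e-05). At 3 h its LPS level was close between genotypes, and its Poly(I:C) level was the one that stood apart, at 41.4 CPM in RelA-TA-KI. Tnf was at 1391 and 34.9 CPM in WT at 3 h and 885.5 and 94.9 at 8 h (difference -3.23, SE 0.26, adjusted p = 0.00068), lower in RelA-TA-KI with LPS and higher with Poly(I:C) at both times. Mmp13, a collagenase, was at 1028 and 115.6 CPM in WT at 3 h and 3710 and 155.8 at 8 h, and in RelA-TA-KI at 548.8 and 386.8 and at 1052 and 589.1 (difference -3.20, SE 0.23).

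In other genes the larger gap between genotypes was with LPS. Lbp, the LPS-binding protein gene, was at 78.9 and 11.7 CPM in WT at 3 h and 431.7 and 35.8 at 8 h, but at 3.44 to 4.73 CPM in the 4 RelA-TA-KI libraries, below their untreated 4.97 (difference -3.17, SE 0.28). Lbp was thus lower in RelA-TA-KI with both agents. Il1a reached 199.4 CPM with LPS in WT at 3 h and 1379 at 8 h, against 24.4 and 50.8 in RelA-TA-KI; levels with Poly(I:C) were 0.784 to 1.398 CPM in both genotypes (difference -2.98). Cfb, a complement factor gene, had 4.04 and 32.3 CPM with LPS in WT cells, against 0.287 and 2.52 in RelA-TA-KI (difference -3.10). Tnfsf11, the osteoclast factor RANKL, was at 74.6 and 328.9 CPM with LPS and 5.08 and 12.9 with Poly(I:C) in WT at 3 and 8 h, and at 28.7 and 31.8 and at 9.53 and 19.9 in RelA-TA-KI (difference -3.28). By list, the lower ratio in RelA-TA-KI was called for 12 of 16 fitted acute phase and complement genes, 8 of 26 cytokines and 6 of 12 inflammatory enzymes. It was also called for 3 of 6 neutrophil chemokines, 8 of 34 immediate early genes, 6 of 20 myeloid LPS response genes and 5 of 18 matrix proteases and inhibitors. Further counts were 4 of 25 NF-kB inhibitors and feedback regulators, 3 of 18 CC and other chemokines and 3 of 17 interferon-inducible GTPases. The share of all genes was 1.26%. Calls were also made for 2 of 20 interferon signaling genes, 1 of 21 MHC class I and antigen processing genes and 1 of 54 antiviral genes. The MHC and antiviral counts are near the share of all genes. Lists not given here had at most 2 calls each. No list member outside the p53 target list (2 genes) was called in the other direction.

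Among the 16 genes with a higher ratio in RelA-TA-KI, Il21r, an interleukin receptor gene, had the widest difference (2.11, SE 0.32, adjusted p = 0.016), with 2.54 and 27.9 CPM in WT at 3 h and 1.84 and 17.7 at 8 h, and 10.5 and 30.2 and then 12 and 22.3 in RelA-TA-KI. Gata3 was at 14.9 and 19.3 CPM in WT at 3 h and 5.85 and 36.4 at 8 h, and at 20.9 and 12.1 and then 15.8 and 15.1 in RelA-TA-KI. The caveolar protein gene Cavin2 was at 38.4 and 89.8 and then 17.4 and 78.1 CPM in WT, and at 81.8 and 87.5 and then 38.3 and 44.2 in RelA-TA-KI. For these 3 genes LPS lay below Poly(I:C) in WT at both times. Sox4, a transcription factor gene, had the same order (108.7 and 233.9, then 68.9 and 180.4 CPM in WT; 194.8 and 215.6, then 151.4 and 174.3 in RelA-TA-KI).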

How the data were processed

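Poly(A) RNA was sequenced in 18 libraries of 1 table, of which 8 late ones entered the joint model. Per the submitters' processing notes, reads were trimmed (cutadapt 1.9.1), aligned to mm10 (STAR) and counted per gene (featureCounts 1.4.6); DESeq2 is also listed there without a role. The deposited values are raw counts for 45706 identifiers, of which 45143 were given a symbol. The annotation release, strand setting and treatment of multiply mapped reads are not given in the sources used here. CPM used TMM factors over the 18 libraries (edgeR 4.0.16, R 4.3.3), and log2 ratios a prior count of 2. The joint model was edgeR's quasi-likelihood F test (filterByExpr, threshold 0.05); SE is the absolute log2 value over the square root of F. It was tested on simulated data with a single common dispersion and no genotype-by-agent-by-time effect. That test cannot show how the calls would hold in replicate cultures. Intervals of single ratios are exact binomial (95%), floors are 3 counts, and both cover counting error only. Alternatives were other scalings, prior counts, CPM and fold minimums, model terms and DESeq2 1.42.0.

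Genes were named by a rule: the 10 most higher with each agent at each time (by size, with at least 20 counts over the pair), up to 4 members of each of 31 lists with the largest mean ratio, the 8 largest genotype differences in each direction, and 15 anchors. Members and lists were chosen with earlier results of these data known. Levels are compared between libraries, not between genes.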

Additional observations from a re-analysis of the deposited data

Results flagged for a closer look

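The ratio of LPS to Poly(I:C) differed between RelA-TA-KI and WT for 180 genes (edgeR quasi-likelihood F test, adjusted p below 0.05). The named ones with a lower ratio in RelA-TA-KI differed on the log2 scale by -4.28 (Il12b), -3.28 (Tnfsf11), -3.23 (Tnf), -3.20 (Mmp13), -3.17 (Lbp), -3.10 (Cfb), -3.02 (Il6) and -2.98 (Il1a). Those with a higher ratio differed by 2.11 (Il21r), 1.85 (Gata3), 1.49 (Cavin2), 1.22 (Col10a1), 1.21 (Ano3), 1.06 (Sox4), 1.05 (Pik3r3) and 1.04 (Stox2). The genotypes also differed in Xist, as given in the report, and each is represented by 1 library per condition.

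The ratio differed between 8 and 3 h for 532 genes over both genotypes. Named genes whose ratio shifted to Poly(I:C) were Ifnb1 (-5.59), Egr3 (-4.12), Plau (-3.73), Kcnk13 (-3.35) and Tnf (-2.79). Those whose ratio shifted to LPS were Shisa3 (3.50), Marco (3.04), Il1a (2.23), Tnip3 (1.98) and Saa3 (1.82). Marco and Saa3 were at 2.01 CPM or less in 3 of the 4 RelA-TA-KI libraries.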

How the results depend on the processing

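No paired analysis was possible because each condition has 1 library and the labels give these libraries no replicate numbers. Leaving out 1 of the 8 libraries leaves the joint model no residual degree of freedom, so no library was left out. Counts by size (LPS, Poly(I:C)) were 431 and 328 at 3 h and 450 and 454 at 8 h with a minimum of 1 CPM, 865 and 683 and then 966 and 1010 with none, and 101 and 10 and then 111 and 58 at a log2 ratio of 1.5. At 3 h Poly(I:C) had 32 with a minimum of 10 CPM and 178 with total-count scaling. The agent in RelA-TA-KI was called for 1207 genes without filterByExpr, 23 without the agent-by-time term, 133 in the 4 RelA-TA-KI libraries alone and 242 by DESeq2. The genotype difference was called for 504 with RLE scaling, 845 without filterByExpr, 0 without the agent-by-time term and 85 by DESeq2. The time difference was called for 928, 1262 and, by DESeq2, 133. Of 44 named calls for the genotype difference DESeq2 kept 31 and lost 8, and of 47 for time it kept 26 and lost 19. The rest had no adjusted p. DESeq2 gave none for 1772, 7341 and 3038 of 13056 genes for the agent, the genotype difference and time. No named result changed sign while called, and prior counts of 0.5 and 5 left each count by size within 1.5 times. The cause of these shifts was not tested.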
